A study of Mus musculus with 9 samples.

Results

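F-box substrate receptors are the subunits that choose the target in the SCF ubiquitin ligases, and 76 of their genes were followed in mouse calf muscle. They were chosen by symbol alone: of the 23238 gene symbols counted, those made of Fbxo, Fbxl or Fbxw and a number, leaving out Fbxo32 (atrogin-1), the muscle F-box gene named for its rise in wasting. The symbols gave 36 FBXO, 18 FBXL and 22 FBXW genes. Messenger RNA ends were counted in the gastrocnemius, the large calf muscle, of female mice of the inbred C57BL/6 strain, whose age the labels give as 4 weeks. The RP group was given 4 cisplatin injections of 3 mg/kg on alternate days and oral RP at 100 mg/kg on each of 9 days; the study's title is about a Paeonia lactiflora (peony) extract. The Cisplatin group received the same 4 injections, with distilled water by mouth. The Normal group received saline injections and distilled water. Each group had 3 libraries, no group received RP without cisplatin, and no genotype differed between groups. The labels do not say that each library came from its own mouse, so the tests weigh differences against the spread among these samples only, which may be technical in part.

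An SCF ligase is built on a cullin scaffold, CUL1, which holds the RING protein RBX1 at one end and the adaptor SKP1 at the other. The F-box is the short domain by which a receptor docks on SKP1; the rest of the receptor binds the protein to be marked with ubiquitin for the proteasome. FBXW receptors bind through WD40 repeats, FBXL receptors through leucine-rich repeats, and FBXO receptors through other domains. Cisplatin is a platinum drug that crosslinks DNA, and muscle wasting is a known side effect of it. Atrogin-1 is the receptor best known in wasting muscle, and the question taken up here is what its many relatives did in the same muscles.

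The libraries held 8196030 to 10678342 counts, and 12859 genes passed the filter on low counts and were tested. Adjusted p-values below are from edgeR's quasi-likelihood test on all 9 libraries, with Benjamini-Hochberg adjustment over all genes tested; a gene is called risen or fallen under 0.05. Levels are CPM, the tags of a gene scaled to library size and TMM factors, and each count is 1 tag near the end of a transcript, not scaled by gene length. Fbxo32 itself had 550.2, 292 and 659 CPM in RP, 8155, 10204 and 11868 CPM in Cisplatin, and 343, 472 and 334 CPM in Normal. The 12 markers of myofibres, the cells of the labelled tissue, were all detected and summed to 132137 to 152336 CPM in RP, 92474 to 115342 CPM in Cisplatin and 123272 to 139421 CPM in Normal. Markers of other cells moved with the groups. In Cisplatin against Normal, 6 of 7 fibroblast and fibro-adipogenic markers fell, 4 of 4 tendon, 6 of 6 smooth muscle and pericyte, 5 of 6 macrophage (Cd68 rose), 5 of 5 adipocyte, 4 of 6 Schwann cell, 3 of 6 endothelial, 5 of 5 erythroid, 2 of 5 satellite cell and 7 of 12 myofibre markers; 1 of 3 neutrophil and 1 of 12 myofibre markers rose. In RP against Normal the 5 erythroid markers and 1 of 4 tendon markers fell, and no other listed marker was called. In RP against Cisplatin, 7 of 7 fibroblast, 4 of 4 tendon, 6 of 6 smooth muscle and pericyte, 4 of 6 macrophage, 5 of 5 adipocyte, 4 of 6 Schwann cell, 2 of 6 endothelial, 4 of 5 erythroid, 2 of 5 satellite cell and 7 of 12 myofibre markers rose, and 3 of 3 neutrophil markers and Cd68 fell. The fibroblast markers summed to 2127 to 2992 CPM in RP, 436 to 886 CPM in Cisplatin and 2848 to 3979 CPM in Normal. No listed marker found in the files was at 0 in every library, though the 7 lymphocyte markers were too low to test. In bulk muscle, fewer cells of a type and less RNA per cell cannot be told apart, and the part of these shifts in the values below was not tested.

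Of the 76 F-box genes, 48 passed the filter and were tested: 25 of 36 FBXO, 15 of 18 FBXL and 8 of 22 FBXW genes. The filter asked for about 1.09 CPM in at least 3 libraries, which need not be of 1 group: 45 of the 48 cleared it in every library of 2 or 3 groups. Fbxl8 cleared it in every library of Normal alone, and Fbxo5 and Fbxw9 in no whole group. Fbxl7, Fbxl15, Fbxl16, Fbxo10 and Fbxo17, among the 45, cleared it in every library of RP and Normal but not of Cisplatin. All of them were called fallen with cisplatin (below), so they passed the filter through groups where they were higher. Their falls, and the rises of Fbxl7 and Fbxo17 in RP against Cisplatin, are to be read as descriptions. Of the 28 genes not tested, 13 had no count in any of the 9 libraries, which allows up to 0.0364 CPM over all libraries together (3 counts of 82389441, counting error only). The other 15 had 1 to 70 counts in all. The best covered of these was Fbxo36, with 18 counts over the RP libraries, 30 over Cisplatin and 22 over Normal. Fbxo2, a receptor of nervous tissue that binds sugar chains, had 7, 18 and 5 counts over the RP, Cisplatin and Normal libraries.

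Most genes without a count belong to 1 rodent gene cluster. A row of 13 Fbxw genes lies side by side on chromosome 9 between 109139447 and 109790670 (GENCODE M21 on GRCm38), all on the minus strand, from Fbxw21 to Fbxw27. Over all 9 libraries 11 of these 13 had no count, and the cluster as a whole had 4 counts, 3 of Fbxw26 and 1 of Fbxw22. Near-identical copies such as these can share or lose reads in mapping, so a low count of 1 of them is uncertain. The remaining genes at 0 were Fbxo15, known from mouse embryonic stem cells, and Fbxo39.

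Among the tested genes the mean level over the 9 libraries ran from 0.878 to 243 CPM, with a median of 11.7 CPM. Fbxo31 led the FBXO genes at 243 CPM, followed by Fbxo3 at 68.5 CPM and Fbxo6 at 56.9 CPM. Fbxw7 led the FBXW genes at 62.2 CPM, followed by Fbxw2 at 56.2 CPM and Fbxw11 at 36.6 CPM. Fbxl17 led the FBXL genes at 56.1 CPM, and Fbxl5 was at 25.5 CPM. Most of the lead of Fbxo31 came from the Cisplatin libraries, where it averaged 550.3 CPM. Its Normal mean of 78.3 ± 9.76 CPM stood beside 75.9 ± 9.04 CPM of Fbxw7 and 75.6 ± 9.15 CPM of Fbxo3 (SD, n = 3). These 3 levels lay within 1 SD of each other. In RP Fbxo31 was also first on average, at 99.2 ± 17.8 CPM. Fbxw7 averaged 74.95 ± 2.49 CPM in RP and Fbxo3 74.7 ± 7.93 CPM. The RP libraries of Fbxo31 lay above all those of Fbxw7 and overlapped those of Fbxo3. The median tested level was 12 CPM in the FBXO subfamily, 10.4 CPM in FBXL and 27.2 CPM in FBXW, where the cluster genes are not among those tested.

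**Figure D1:**
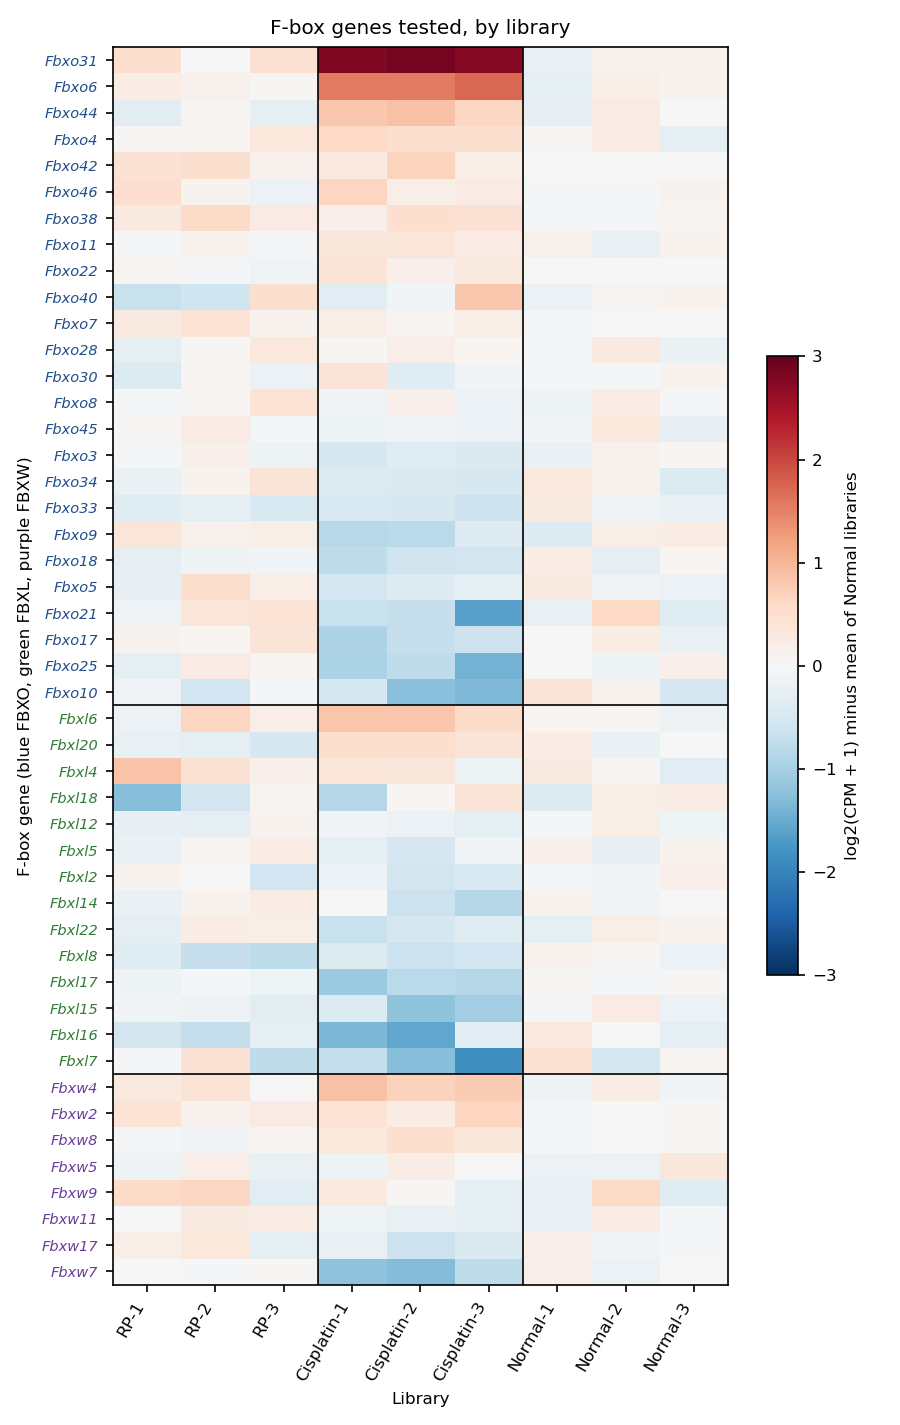
Each row is 1 of 47 tested F-box genes and each column 1 library (RP, Cisplatin, Normal, 3 each); the color is log2(CPM + 1) minus the mean of the Normal libraries. The Cisplatin columns stand apart in both directions, with Fbxo31 and Fbxo6 the highest above Normal, while the RP columns lie near the Normal ones.

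With cisplatin, 9 of the 48 tested F-box genes rose and 14 fell against Normal. The risen were Fbxo31, Fbxo6, Fbxo44, Fbxo4, Fbxl6, Fbxl20, Fbxw4, Fbxw2 and Fbxw8. The fallen were Fbxo25, Fbxo21, Fbxo9, Fbxo3, Fbxo18, Fbxo10, Fbxo17, Fbxo33, Fbxl17, Fbxl22, Fbxl7, Fbxl15, Fbxl16 and Fbxw7. These are 47.9% of the tested members, in a comparison in which 54.5% of all genes tested were called (26.3% risen, 28.2% fallen), so the share is near that of muscle genes at large. At an unadjusted p under 0.05 there were 26 members, against 59.8% of all genes. The 3 Cisplatin and the 3 Normal libraries did not overlap for 34 members (70.8%), against 62.2% of all genes. Without any 1 of Normal-1, Normal-3, Cisplatin-1 and Cisplatin-2 only 4 or 5 members were called risen. Without any 1 of Normal-1, Normal-2 and Cisplatin-2 only 7 or 8 were called fallen. Of the fallen, Fbxo10, Fbxo17, Fbxl7, Fbxl15 and Fbxl16 had passed the filter through the RP and Normal libraries, where they were higher.

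With RP on top of cisplatin, 11 members rose and 6 fell against Cisplatin. The risen were Fbxw7, Fbxl17, Fbxo9, Fbxo25, Fbxo21, Fbxo17, Fbxl22, Fbxo3, Fbxl7, Fbxw11 and Fbxo34; the fallen were Fbxo31, Fbxo6, Fbxl20, Fbxo44, Fbxw4 and Fbxw8. This is 35.4% of the tested members, where 48.8% of all genes tested were called (24.6% risen, 24.2% fallen), and 22 members had an unadjusted p under 0.05, against 55.4% of all genes. Groups did not overlap for 24 members (50%), against 56.8% of all genes. Without RP-2 the number risen was 6. This comparison and Cisplatin against Normal share the 3 Cisplatin libraries, so a gene's values in both are given side by side and not as independent evidence.

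**Figure D2:**
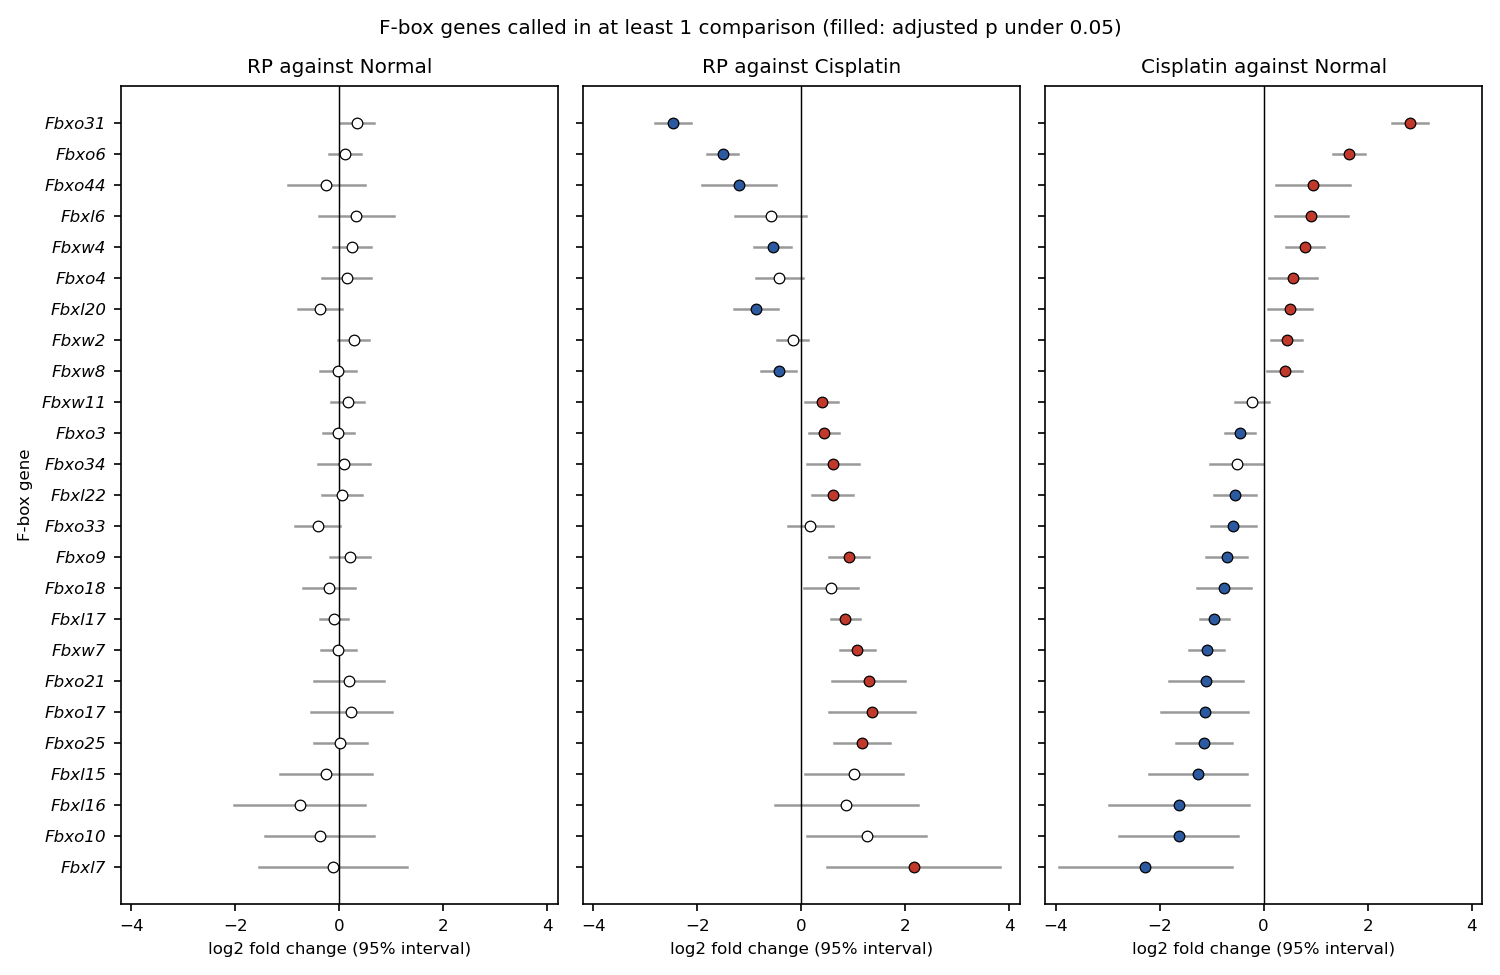
Log2 fold changes of the 25 F-box genes called in at least 1 comparison, with 95% intervals from the quasi-likelihood fit; filled points have an adjusted p under 0.05. Fbxo31 and Fbxo6 have the largest positive changes in Cisplatin against Normal and the largest negative ones in RP against Cisplatin, and no point is filled in RP against Normal.

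Receptors of the cell cycle and of DNA damage come first. FBXO31 is known in human cells for directing cyclin D1 and MDM2 to destruction after DNA damage. Fbxo31 (minus strand of chromosome 8, 121549440 to 121578806) had 111, 78.8 and 108 CPM in RP, 551, 576 and 524 CPM in Cisplatin, and 67.0, 84.5 and 83.3 CPM in Normal. Every Cisplatin library lay far above all 6 others, while RP and Normal overlapped. The log2 fold change was 2.81 in Cisplatin against Normal (SE 0.16, 95% interval 2.47 to 3.16, adjusted p = 5.36e-08, edgeR) and -2.47 in RP against Cisplatin (SE 0.16, interval -2.81 to -2.13, adjusted p = 1.8e-07). Both calls held in all 18 alternative settings tried, with a log2 of 2.72 to 2.88 and of -2.56 to -2.33.

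Other receptors of this kind moved less or in the other direction. Fbxo4, which also acts on cyclin D1, averaged 8.60 ± 1.12 CPM in RP, 11.5 ± 0.608 CPM in Cisplatin and 7.79 ± 1.57 CPM in Normal (SD, n = 3 each). Its rise with cisplatin was called (log2 0.56, SE 0.22, adjusted p = 0.0404, edgeR), but 11 of the 18 alternative settings did not call it. Fbxo10, known for acting on the survival factor BCL2, averaged 2.40 ± 0.620 CPM in RP, 1.01 ± 0.655 CPM in Cisplatin and 3.13 ± 1.23 CPM in Normal. It fell with cisplatin (log2 -1.64, SE 0.53, adjusted p = 0.0184, edgeR), a call lost without Normal-1 (adjusted p = 0.0835), Cisplatin-2 (0.0710) or Cisplatin-3 (0.0642). Fbxo18, the DNA helicase FBH1 that unwinds recombination intermediates, averaged 7.31 ± 0.638 CPM in RP, 4.94 ± 0.418 CPM in Cisplatin and 8.43 ± 1.69 CPM in Normal. It fell with cisplatin (log2 -0.77, SE 0.24, adjusted p = 0.0160, edgeR), lost without Normal-1 (adjusted p = 0.0776) or Cisplatin-1 (0.0510). Fbxo22 and Fbxo11, which act on histone demethylases and on the repressor BCL6, averaged 19 and 48.5 CPM in Cisplatin, against 15.3 and 39.0 CPM in Normal. Neither was called (adjusted p = 0.115 and 0.0684). Fbxo5 (EMI1, an inhibitor of the cell cycle ligase APC/C) reached at most 1.79 CPM in any library and was called in no comparison.

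The receptors that share a domain with FBXO2, which binds sugar chains of glycoproteins, sit in 2 pieces of the genome. Fbxo6, Fbxo44 and Fbxo2 follow each other on chromosome 4, with 659 bases between Fbxo6 and Fbxo44 and 138 between Fbxo44 and Fbxo2. Fbxo27 and Fbxo17 lie 17465 bases apart on chromosome 7. Fbxo6 takes part in the disposal of misfolded glycoproteins from the endoplasmic reticulum. It had 38.1, 35.6 and 33.2 CPM in RP, 98.7, 98.2 and 109 CPM in Cisplatin, and 27.1, 36.7 and 34.9 CPM in Normal. The Cisplatin libraries were close to each other and above all the rest, and RP and Normal overlapped. The log2 fold change was 1.63 in Cisplatin against Normal (SE 0.14, interval 1.33 to 1.94, adjusted p = 1.03e-06, edgeR) and -1.52 in RP against Cisplatin (SE 0.14, interval -1.82 to -1.21, adjusted p = 2.9e-06). Both calls held in every alternative tried (adjusted p up to 1.01e-05 and 3.26e-05).

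Its neighbour Fbxo44 had far fewer tags and was also highest in Cisplatin. Fbxo44 had 1.96, 2.98 and 2.12 CPM in RP, 5.64, 5.89 and 4.76 CPM in Cisplatin, and 2.17, 3.47 and 2.77 CPM in Normal, with no overlap of Cisplatin with the others. Fbxo44 changed by a log2 of 0.95 against Normal (SE 0.33, adjusted p = 0.0257, edgeR) and -1.20 in RP against Cisplatin (SE 0.33, adjusted p = 0.00853). The first call was lost without Normal-1 (0.0894), Normal-3 (0.0577), Cisplatin-1 (0.0602) or Cisplatin-2 (0.0759); the second held in every alternative (adjusted p up to 0.0342). The third gene of the row, Fbxo2, was too low to test. Fbxo17 on chromosome 7 went the other way. It had 3.20, 3.08 and 4.14 CPM in RP, 1.06, 1.43 and 1.55 CPM in Cisplatin, and 2.90, 3.58 and 2.41 CPM in Normal, so that all Cisplatin libraries were lowest. Its log2 fold change was -1.13 in Cisplatin against Normal (SE 0.39, adjusted p = 0.0250, edgeR) and 1.36 in RP against Cisplatin (SE 0.38, adjusted p = 0.00994). Without Normal-1, Normal-2, Cisplatin-1 or Cisplatin-2 the first of these calls was lost, with adjusted p-values of 0.0510 to 0.0956. Fbxo27, its neighbour, had 2, 0 and 11 counts over the RP, Cisplatin and Normal libraries and was not tested.

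Of the receptors known from muscle, Fbxo25, Fbxo21 and Fbxl22 fell with cisplatin and Fbxo30 and Fbxo40 were not called. FBXO25 is the closest relative of atrogin-1, and Fbxo25 (chromosome 8, 13907803 to 13940522, plus strand) had 9.20, 14 and 12.1 CPM in RP, 5.52, 6.37 and 3.69 CPM in Cisplatin, and 11.5, 10.4 and 13 CPM in Normal. Each Cisplatin library was below all others. It changed by a log2 of -1.15 in Cisplatin against Normal (SE 0.25, interval -1.69 to -0.61, adjusted p = 0.00161, edgeR) and 1.17 in RP against Cisplatin (SE 0.25, interval 0.63 to 1.71, adjusted p = 0.00167), and both held in every alternative. Fbxo21 (SMART), described in mice as an atrophy receptor induced by FoxO factors, had 12.2, 17.1 and 17.9 CPM in RP, 7.87, 7.70 and 3.57 CPM in Cisplatin, and 11, 20.5 and 9.87 CPM in Normal. Cisplatin was lowest again, with the Normal libraries widely spread. Fbxo21 changed by a log2 of -1.10 in Cisplatin against Normal (SE 0.33, adjusted p = 0.0117, edgeR), and without Normal-2 it was -0.69 and no longer called (adjusted p = 0.0853, the highest of 18 alternatives that reached down to 0.00173). In RP against Cisplatin it was 1.29 (SE 0.33, adjusted p = 0.00511), called in every alternative.

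Fbxo30 (MUSA1), described in mice as a receptor of denervation and fasting atrophy, had 9.30, 13.6 and 11.2 CPM in RP, 17, 9.70 and 12 CPM in Cisplatin, and 12.4, 12.1 and 13.7 CPM in Normal. The groups overlapped, and the log2 fold change in Cisplatin against Normal was 0.01 (SE 0.23, interval -0.48 to 0.51, adjusted p = 0.968, edgeR). Fbxo40, a muscle receptor for the insulin signalling protein IRS1, averaged 3.06 ± 1.98 CPM in RP, 4.27 ± 2.31 CPM in Cisplatin and 3.56 ± 0.470 CPM in Normal. It was not called (log2 0.25, interval -0.75 to 1.26), an interval that takes in both a large rise and a moderate fall. Fbxl22, a receptor of the sarcomere's Z-disc known from heart and skeletal muscle, had 21.8, 30.9 and 30.3 CPM in RP, 16.3, 18.1 and 20.3 CPM in Cisplatin, and 21.5, 30.2 and 28.5 CPM in Normal. It fell with cisplatin (log2 -0.55, SE 0.19, adjusted p = 0.0226, edgeR) and rose in RP against Cisplatin (log2 0.60, SE 0.19, adjusted p = 0.0160). The highest Cisplatin library lay just below the lowest of the other 6. The first call was lost without any 1 of Normal-2, Normal-3, Cisplatin-1 and Cisplatin-2 (adjusted p = 0.0582 to 0.0937), and the second without Cisplatin-1, RP-2 or RP-3 (0.0561 to 0.0628). Fbxl22 shares 317 exon bases with Herc1 on the other strand, and the strand setting of the counting is not given in the sources used here; Herc1 itself was not called (log2 -0.04 and -0.18).

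**Figure D3:**
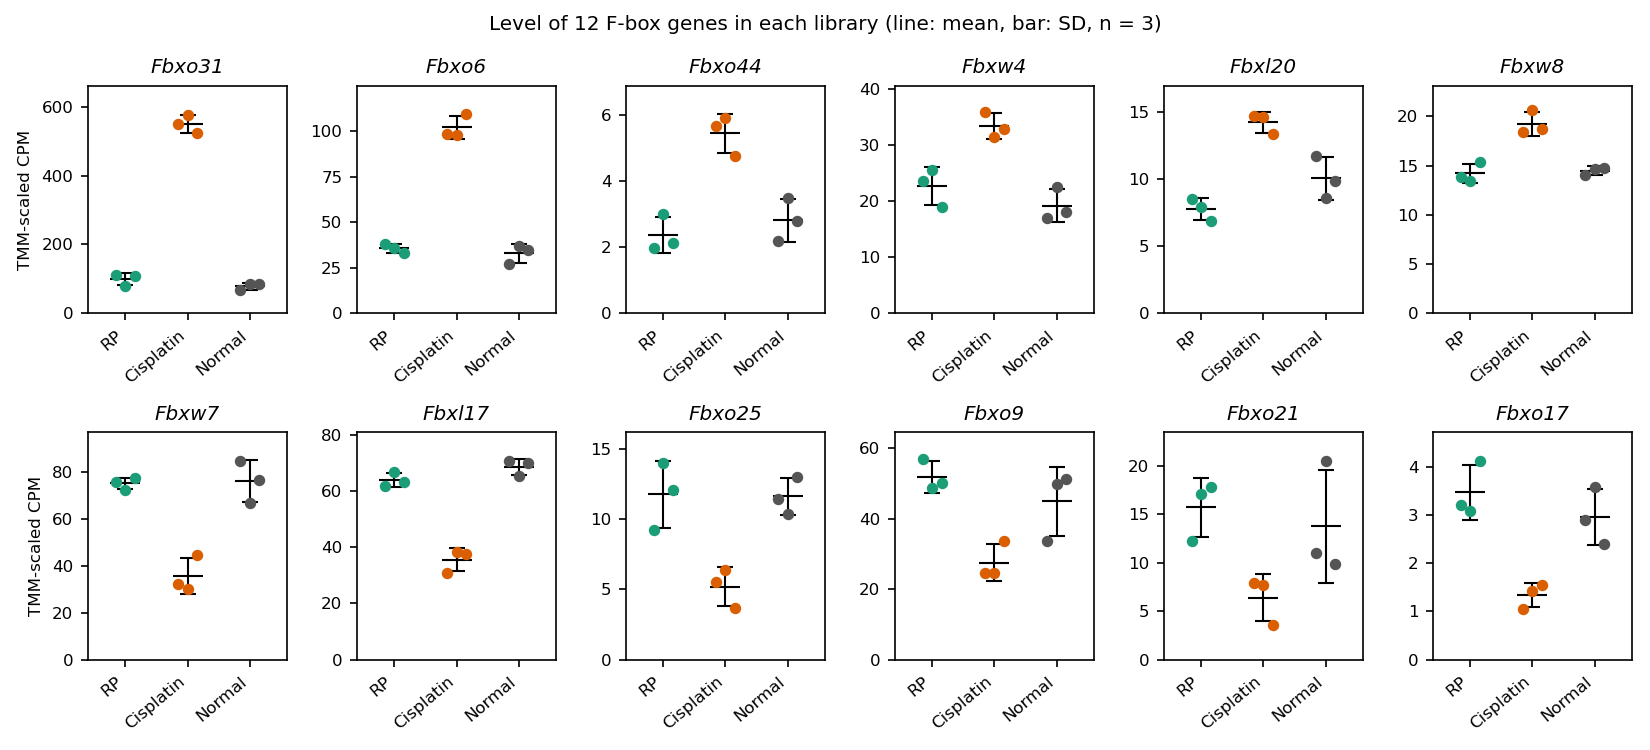
CPM of 12 F-box genes called in both comparisons with Cisplatin, in each RP, Cisplatin and Normal library (points), with the group mean (line) and SD (bar), n = 3; each panel has its own linear axis from 0. Fbxl7, Fbxl22 and Fbxo3, also called in both, are not shown. On average Fbxo31, Fbxo6, Fbxo44, Fbxw4, Fbxl20 and Fbxw8 are highest in Cisplatin, and Fbxw7, Fbxl17, Fbxo25, Fbxo9, Fbxo21 and Fbxo17 lowest. The RP and Normal libraries overlap in every panel but that of Fbxl20, where RP is lower.

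Among the remaining FBXO genes, Fbxo9, Fbxo3 and Fbxo33 fell with cisplatin, and Fbxo34 was called only in RP against Cisplatin. FBXO9 acts on regulators of mTOR signalling in human cells. Fbxo9 had 56.9, 48.6 and 50.04 CPM in RP, 24.4, 24.6 and 33.5 CPM in Cisplatin, and 33.7, 49.7 and 51.4 CPM in Normal. The highest Cisplatin library lay just below the lowest Normal library. Its log2 fold change was -0.71 in Cisplatin against Normal (SE 0.18, adjusted p = 0.00498, edgeR) and 0.91 in RP against Cisplatin (SE 0.18, adjusted p = 0.00106), both called in every alternative. Fbxo3, a receptor for the relative FBXL2, had 73.5, 83.1 and 67.4 CPM in RP, 52.4, 58.1 and 55.6 CPM in Cisplatin, and 65.3, 82.9 and 78.6 CPM in Normal. Cisplatin was lowest, by a log2 of -0.45 against Normal (SE 0.14, adjusted p = 0.0126, edgeR), and RP was higher than Cisplatin by 0.43 (SE 0.14, adjusted p = 0.0176). The first was lost without Normal-2 (0.0648, in a range of 0.00466 to 0.0648 over the alternatives) and the second without Cisplatin-1 (0.0571) or RP-2 (0.0740). Fbxo33 fell with cisplatin (log2 -0.58, SE 0.20, adjusted p = 0.0254) and was lost without Normal-1, Cisplatin-2 or Cisplatin-3 (0.0544 to 0.144). Fbxo34 rose in RP against Cisplatin (log2 0.61, SE 0.23, adjusted p = 0.0440), a call that 9 of 18 alternatives did not make. The other 7 tested FBXO genes were called in no comparison: Fbxo7 (a Parkinson's disease gene), Fbxo8, Fbxo28, Fbxo38, Fbxo42 (a receptor for p53), Fbxo45 (a partner of the neuronal ligase PHR1) and Fbxo46. Their log2 fold changes in Cisplatin against Normal ran from -0.18 for Fbxo45 to 0.46 for Fbxo42 and Fbxo46.

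Among the FBXL receptors, Fbxl17 changed with the smallest adjusted p. FBXL17 is known for removing BTB-domain proteins that have paired wrongly. Fbxl17 (minus strand of chromosome 17, 63057452 to 63500017) had 61.8, 66.7 and 63.2 CPM in RP, 31.02, 38.5 and 37.5 CPM in Cisplatin, and 70.8, 65.5 and 69.9 CPM in Normal. All Cisplatin libraries were far below the other 6. These levels gave a log2 fold change of -0.94 in Cisplatin against Normal (SE 0.13, interval -1.22 to -0.67, adjusted p = 4.25e-05, edgeR) and 0.84 in RP against Cisplatin (SE 0.13, interval 0.56 to 1.12, adjusted p = 0.000148), called in every alternative. Fbxl20, known from synapses where it acts on the release protein RIM1, was highest in Cisplatin. It had 8.48, 7.95 and 6.86 CPM in RP, 14.7, 14.6 and 13.3 CPM in Cisplatin, and 11.7, 8.56 and 9.87 CPM in Normal. Its fall in RP against Cisplatin was called in every alternative (log2 -0.87, SE 0.20, adjusted p = 0.00248, edgeR). Its rise in Cisplatin against Normal was smaller and less certain (log2 0.50, SE 0.20, adjusted p = 0.0432), with 10 of 18 alternatives not calling it.

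Several low FBXL genes were called with wide intervals. Fbxl7, a receptor for the mitotic kinase Aurora A in human cells, had 2.48, 3.87 and 1.11 CPM in RP, 1.17, 0.475 and 0 CPM in Cisplatin, and 3.86, 1.5 and 2.77 CPM in Normal. Its log2 fold change of -2.28 in Cisplatin against Normal (SE 0.77, interval -3.94 to -0.61, adjusted p = 0.0232, edgeR) and of 2.16 in RP against Cisplatin (SE 0.77, interval 0.50 to 3.81, adjusted p = 0.0326) rest on 24, 39 and 11 counts in RP, 10, 5 and 0 counts in Cisplatin, and 32, 13 and 23 counts in Normal, and RP and Cisplatin overlapped. Without 1 of Normal-1, Normal-3, Cisplatin-2 or Cisplatin-3 the first call was lost (adjusted p = 0.0508 to 0.0875), and without 1 of Cisplatin-2, Cisplatin-3, RP-1 or RP-2 the second (0.0659 to 0.135). Fbxl6 had 2.58, 5.26 and 3.63 CPM in RP, 6.23, 6.18 and 4.88 CPM in Cisplatin, and 3.26, 3.24 and 2.65 CPM in Normal. It rose with cisplatin (log2 0.92, SE 0.33, adjusted p = 0.0293, edgeR), a call lost without any 1 of the 3 Normal libraries, Cisplatin-1 or Cisplatin-2 (0.0512 to 0.0817). Fbxl15, which acts on the ligase SMURF1, fell with cisplatin (log2 -1.27, SE 0.44, adjusted p = 0.0254), as did Fbxl16 (log2 -1.62, SE 0.63, adjusted p = 0.0418). Fbxl15 was lost without 1 of 4 libraries (Normal-1, Normal-2, Cisplatin-2, Cisplatin-3; 0.0505 to 0.0979) and Fbxl16 without 1 of 6 (all but Normal-3, Cisplatin-3 and RP-2; up to 0.141).

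Fbxl5, the iron sensor that removes IRP2, had 23.2, 28.5 and 31.3 CPM in RP, 22.1, 18.7 and 25.1 CPM in Cisplatin, and 29.7, 22.3 and 29.0 CPM in Normal (log2 -0.30, interval -0.68 to 0.08). It did not pass the test, and the groups overlapped. Fbxl4, tied to mitochondrial DNA maintenance, averaged 9.27 ± 2.61 CPM in RP, 7.26 ± 1.55 CPM in Cisplatin and 6.30 ± 1.46 CPM in Normal and was not called either. Of the others, Fbxl2, Fbxl8, Fbxl12, Fbxl14 and Fbxl18 were called in no comparison, with log2 fold changes of -0.93 for Fbxl8 to -0.09 for Fbxl18 in Cisplatin against Normal. Fbxl13, Fbxl19 and Fbxl21 had 8, 45 and 3 counts in all and were not tested.

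Fbxw7 changed most among the FBXW receptors. FBXW7 is known for removing cyclin E, MYC, JUN and Notch. Fbxw7 (chromosome 3, 84815268 to 84979198, plus strand) had 75.6, 72.2 and 77.1 CPM in RP, 32.3, 30.1 and 44.4 CPM in Cisplatin, and 84.7, 66.6 and 76.5 CPM in Normal. The Cisplatin libraries were below all others with a wide gap. The log2 fold change was -1.09 in Cisplatin against Normal (SE 0.16, interval -1.44 to -0.75, adjusted p = 7.04e-05, edgeR) and 1.08 in RP against Cisplatin (SE 0.16, interval 0.73 to 1.42, adjusted p = 0.000109), called in every alternative.

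The other called FBXW genes were higher with cisplatin or not called against Normal. Fbxw4 (dactylin, known from limb development) had 23.5, 25.5 and 19 CPM in RP, 35.8, 31.4 and 32.8 CPM in Cisplatin, and 16.9, 22.5 and 18 CPM in Normal. It rose with cisplatin in every alternative (log2 0.80, SE 0.17, adjusted p = 0.00119, edgeR) and fell in RP against Cisplatin (log2 -0.56, SE 0.16, adjusted p = 0.0126), a call lost when library size was the only scaling (adjusted p = 0.0791, in a range of 0.00935 to 0.0791 over the alternatives). Fbxw2 had 62.6, 51.9 and 56.5 CPM in RP, 63.3, 55.5 and 74.1 CPM in Cisplatin, and 45.9, 46.9 and 48.7 CPM in Normal. RP and Cisplatin overlapped there, and only Cisplatin against Normal was called (log2 0.45, SE 0.14, adjusted p = 0.0151, edgeR), lost without Cisplatin-3 (0.0542, in a range of 0.00868 to 0.0542 over the alternatives). In RP against Normal Fbxw2 had a log2 fold change of 0.27 (interval -0.03 to 0.57, adjusted p = 0.433).

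Fbxw8, which works with the cullin CUL7 in place of CUL1, had 13.9, 13.4 and 15.3 CPM in RP, 18.4, 20.6 and 18.7 CPM in Cisplatin, and 14, 14.7 and 14.8 CPM in Normal. Its log2 fold changes were 0.41 in Cisplatin against Normal (SE 0.16, adjusted p = 0.0402, edgeR) and -0.44 in RP against Cisplatin (SE 0.16, adjusted p = 0.0317). Of 18 alternatives, 12 did not make the first call, the replicate number as a block among them, and 6 did not make the second. Fbxw11 (beta-TrCP2, a receptor for the NF-kappaB inhibitor and beta-catenin) had 36.9, 43.9 and 43.0 CPM in RP, 33.4, 31.3 and 30.1 CPM in Cisplatin, and 31.9, 43.2 and 35.4 CPM in Normal. It rose in RP against Cisplatin (log2 0.39, SE 0.15, adjusted p = 0.0439, edgeR), which 9 of 18 alternatives did not call. Fbxw5, Fbxw9 and Fbxw17 were called in no comparison.

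Calls were also counted by subfamily, beside 54.5% of all genes tested in Cisplatin against Normal and 48.8% in RP against Cisplatin. In Cisplatin against Normal 4 FBXO genes rose and 8 fell of 25 tested (48.0% called), 2 FBXL genes rose and 5 fell of 15 (46.7%), and 3 FBXW genes rose and 1 fell of 8 (50%). The median log2 fold change was 0.01 in FBXO, -0.42 in FBXL and -0.02 in FBXW, beside -0.08 over all genes tested. In RP against Cisplatin 6 FBXO genes rose and 3 fell (36.0% called), 3 FBXL rose and 1 fell (26.7%), and 2 FBXW rose and 2 fell (50%). The medians were 0.12 in FBXO, 0.33 in FBXL and 0.15 in FBXW, beside 0.07 over all genes. These medians describe 8 to 25 genes each and no test sets a subfamily apart; in each subfamily fold changes of both signs occurred in both comparisons. The FBXW median had no settled sign: it was -0.14, 0.18 and 0.11 in Cisplatin against Normal without Normal-1, Normal-2 and Cisplatin-3.

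**Figure D4:**
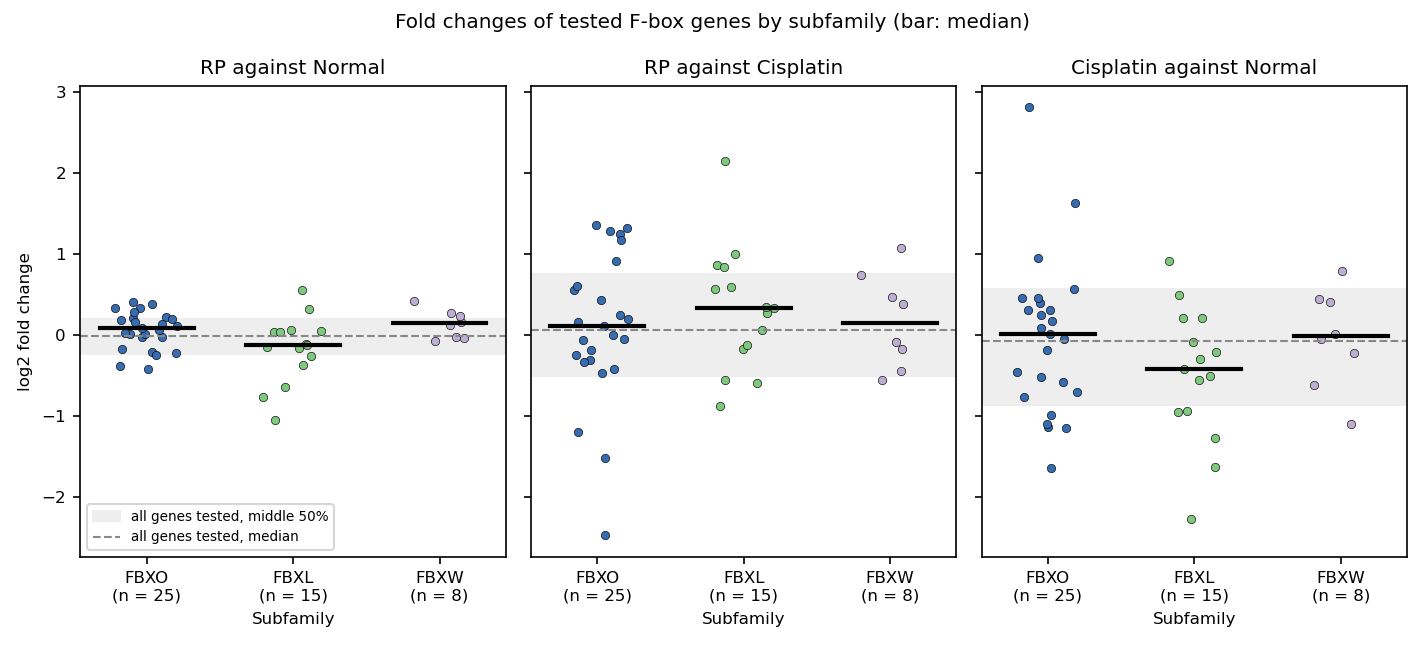
Log2 fold changes of the tested FBXO (n = 25), FBXL (n = 15) and FBXW (n = 8) genes (points) with the subfamily median (bar), in the 3 comparisons; the gray band is the middle 50% of all 12859 genes tested and the dashed line their median. The points of every subfamily lie on both sides of 0, and the RP against Normal points are the closest to it.

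In RP against Normal no F-box gene passed the test, where 0.505% of all genes tested did (65 genes, 0.187% risen and 0.319% fallen). At an unadjusted p under 0.05 there were 2, Fbxo38 and Fbxo31, and 12.8% of all genes tested; DESeq2 called 0 members (1 at an unadjusted p under 0.05) and limma-voom 0 (2). Fbxo38 had 19.1, 23.7 and 18.7 CPM in RP, against 15.2, 15 and 16.7 CPM in Normal (log2 0.39, interval 0.03 to 0.75, adjusted p = 0.356, edgeR). For Fbxo31, whose levels are above, the log2 fold change was 0.34 (interval 0.02 to 0.67, adjusted p = 0.367). These p-values do not show that RP and Normal were alike. The 95% interval lay within 1 log2 unit of 0 for 36 of the 48 members, and within a 1.5-fold change for 18. Libraries of the 2 groups did not overlap for 7 members (14.6%), against 19.2% of all genes: 4 were higher in RP (9.65% of all genes) and 3 lower (9.53%). Fbxl8, which passed the filter through its Normal libraries, where it is highest, had 1.24, 0.795 and 0.706 CPM in RP, against 2.17, 1.97 and 1.56 CPM in Normal, so its difference is given as a description (log2 -1.05, interval -2.12 to 0.02, adjusted p = 0.399).

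Summed over the family, tags were most abundant in the Cisplatin libraries, and without Fbxo31 they were least abundant there on average. All 76 genes together had 989.9 ± 14.5 CPM in RP, 1386 ± 15.9 CPM in Cisplatin and 942 ± 38.2 CPM in Normal (SD, n = 3 each). The FBXO genes summed to 522 ± 5.59 CPM in RP, 986 ± 25.8 CPM in Cisplatin and 482 ± 36.6 CPM in Normal. Fbxo31 made up 19.0% of that FBXO sum in RP, 55.8% in Cisplatin and 16.2% in Normal. Leaving out Fbxo31, a step chosen after its values were seen, the 75 other genes had 891 ± 30.6 CPM in RP, 836 ± 13.3 CPM in Cisplatin and 864 ± 29.0 CPM in Normal, where Cisplatin and Normal overlapped. The FBXO sum without it was 422 ± 17.4 CPM in RP, 435 ± 5.02 CPM in Cisplatin and 404 ± 28.0 CPM in Normal, and without Fbxo6 as well it was 387 ± 18.6 CPM in RP, 333 ± 5.32 CPM in Cisplatin and 371 ± 23.5 CPM in Normal. The FBXL sum was 224 ± 11.9 CPM in RP, 182 ± 2.83 CPM in Cisplatin and 232 ± 0.686 CPM in Normal, and every Cisplatin library was below the other 6. The FBXW sum was 244 ± 4.32 CPM in RP, 218 ± 13.5 CPM in Cisplatin and 229 ± 6.35 CPM in Normal, where Cisplatin and Normal overlapped.

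**Figure D5:**
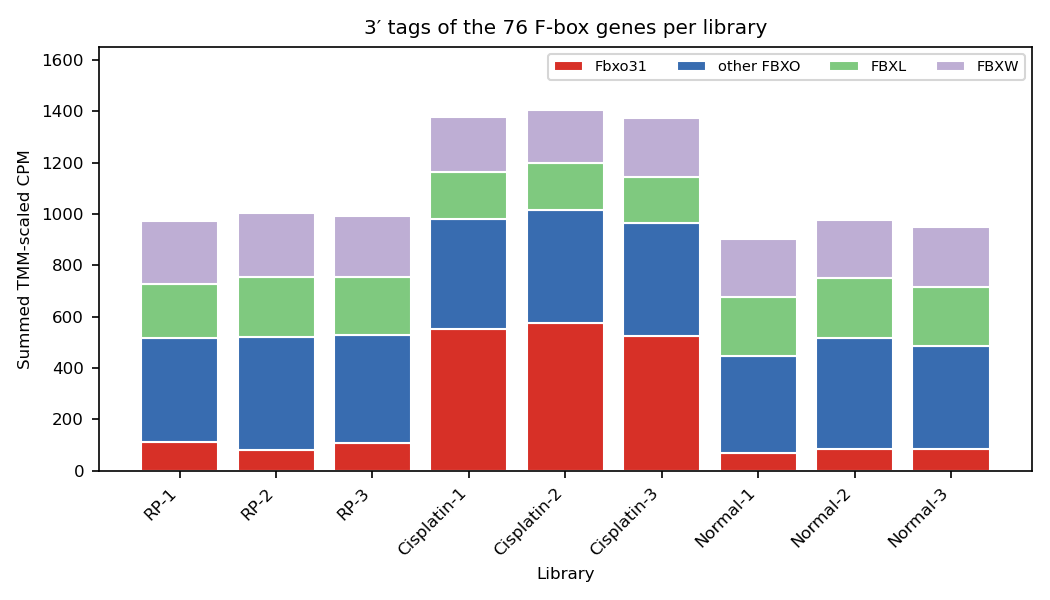
Summed TMM-scaled CPM of the 76 F-box genes in each RP, Cisplatin and Normal library, stacked as Fbxo31, the other FBXO genes, FBXL and FBXW. The Cisplatin bars reach 1375 to 1404 CPM and the others 901 to 1002 CPM, and the Fbxo31 part is the one that differs most.

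Genes of the ligase parts that F-box proteins join were called in both directions. Of 10 tested genes of the SCF core and its E2 enzymes, 4 rose with cisplatin (Cul1, Ube2l3, Ube2d3 and Skp1a) and 1 fell (Ube2d1), beside 54.5% of all genes called. Cul1, the scaffold, averaged 103 CPM in RP, 209 CPM in Cisplatin and 82.7 CPM in Normal, a log2 fold change of 1.34 in Cisplatin against Normal (SE 0.18, adjusted p = 3.22e-05, edgeR) and of -1.02 in RP against Cisplatin (SE 0.18, adjusted p = 0.000353). Ube2d1, an E2 enzyme that hands on ubiquitin, averaged 128 CPM in RP, 53.6 CPM in Cisplatin and 93.6 CPM in Normal (log2 -0.81 and 1.25, adjusted p = 0.00192 and 9.08e-05). In RP against Cisplatin 1 of the 10 rose and 3 fell, beside 48.8% of all genes called. The list's median log2 fold change was 0.20 in Cisplatin against Normal and -0.07 in RP against Cisplatin, beside -0.08 and 0.07 over all genes.

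Cullins are switched on by attachment of the small protein NEDD8 and off by its removal, and 24 genes of that cycle and of receptor exchange were tested. With cisplatin 9 rose and 5 fell, and in RP against Cisplatin 5 rose and 7 fell, beside 54.5% and 48.8% of all genes called (list medians 0.16 and -0.08). Cops5, the subunit of the COP9 signalosome that cuts NEDD8 off, averaged 168 CPM in RP, 300.4 CPM in Cisplatin and 143 CPM in Normal (log2 1.07, SE 0.14, adjusted p = 3.03e-05, in Cisplatin against Normal). Cops2 and Cops4 of the same complex rose too (log2 0.90 and 0.95). Commd1, which keeps the exchange factor CAND1 off cullins, averaged 43.7 CPM in RP, 14.9 CPM in Cisplatin and 44.6 CPM in Normal (log2 -1.58, SE 0.15, adjusted p = 2.31e-06). Of 8 other cullins 3 rose with cisplatin (Cul3, Cul4a and Cul4b) and 1 fell (Cul2), and 0 rose and 3 fell in RP against Cisplatin (list medians 0.41 and -0.45), beside the same shares over all genes. Single libraries moved the smaller of these counts: without Normal-2 or Cisplatin-2, 3 of the NEDD8 list fell with cisplatin, and without Normal-2 or Cisplatin-1, 2 other cullins fell.

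F-box proteins with other names were also mixed. Of 4 tested, Kdm2a, a histone demethylase with an F-box, rose with cisplatin (40.6, 69.5 and 41.1 CPM on average in RP, Cisplatin and Normal; log2 0.76, SE 0.14, adjusted p = 0.000477, edgeR). Lrrc29, at 0.752, 2.01 and 0.518 CPM, rose too (log2 1.94, SE 0.77, adjusted p = 0.0458), though only 1 of the 4 was risen without any 1 of Normal-2, Normal-3, the 3 Cisplatin libraries and RP-3. Btrc (beta-TrCP1), the close relative of Fbxw11, fell (24.0, 15.1 and 23.1 CPM; log2 -0.62, SE 0.18, adjusted p = 0.0106). In RP against Normal none of the genes in these 4 lists was called by edgeR; at an unadjusted p under 0.05 there were 2 of the SCF core and E2 genes, 1 other cullin and 0 in the other lists.

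Sequence upstream of RefSeq starts is shown for members of either direction of call, a grouping that was set by the calls themselves. RefSeq start sites on GRCm38.p6 were found for 57 of the 76 members and for 19 of the 25 called, and the 250 bases before each start were read on both strands for 8 motifs. The forkhead motif TGTTTAC, by which FoxO factors act on atrogin-1, was in 0 of the 57 and in 3.54% of all 27025 genes with a start. A gene was counted as matched if the window of any of its starts held the letters. The antioxidant response element TGACNNNGC of NRF1 and NRF2 was in 6 of the 57 (11.5% of all genes). Of the 6 risen genes that had a start, Fbxl20, Fbxo31 and Fbxw2 held it, and 0 of 11 fallen genes did. For Fbxw2 the window of 1 start held it and the overlapping window of another start did not. The other matched members were Fbxl12 and Fbxo40, called in no comparison, and Fbxo27, not tested. The rise of Fbxl20 was not called in 10 of 18 alternatives. A link of the element to the direction of call was not tested. The E-box CACGTG was in 2 of the 57 (6.86% of all genes) and the cyclic AMP element TGACGTCA in 1 (1.77%). The amino acid response element TGATGCAA, the D-box TTATGTAA, the heat shock element and the glucocorticoid element were in 0. A match is a run of letters and not a binding site, and no match says only that these letters are not in the window. The RefSeq starts can differ from the GENCODE positions given for the genes. The Fbxl20 window lies inside the GENCODE gene (98082556 to 98150403), and the Fbxl17 window lies upstream of its GENCODE gene (end 63500017) without touching it. The windows of Fbxo31 (chr8:121578807-121579056, minus strand) and Fbxl20 (chr11:98149617-98149866, minus strand) follow 5′ to 3′, with the antioxidant element in capitals on its reverse strand; those of Fbxo6 (chr4:148152136-148152385, minus strand) and Fbxl17 (chr17:63500581-63500830, minus strand), the risen gene with the next smallest adjusted p and the fallen FBXL gene with the smallest, hold no match.
Fbxo31: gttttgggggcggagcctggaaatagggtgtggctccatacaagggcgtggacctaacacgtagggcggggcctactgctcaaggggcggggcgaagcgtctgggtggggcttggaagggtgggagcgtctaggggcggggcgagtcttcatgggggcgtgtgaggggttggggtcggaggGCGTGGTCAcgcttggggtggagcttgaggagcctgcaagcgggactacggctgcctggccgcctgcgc
Fbxl20: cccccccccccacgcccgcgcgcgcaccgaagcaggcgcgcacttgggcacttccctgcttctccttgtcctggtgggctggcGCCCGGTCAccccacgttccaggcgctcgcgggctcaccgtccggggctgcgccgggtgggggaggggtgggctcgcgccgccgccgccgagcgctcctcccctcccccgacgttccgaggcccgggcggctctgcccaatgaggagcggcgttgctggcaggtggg
Fbxo6: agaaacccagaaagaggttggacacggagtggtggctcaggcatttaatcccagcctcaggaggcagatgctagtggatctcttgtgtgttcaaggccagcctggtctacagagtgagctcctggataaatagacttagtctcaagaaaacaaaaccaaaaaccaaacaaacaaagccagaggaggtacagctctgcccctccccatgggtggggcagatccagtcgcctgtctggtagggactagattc
Fbxl17: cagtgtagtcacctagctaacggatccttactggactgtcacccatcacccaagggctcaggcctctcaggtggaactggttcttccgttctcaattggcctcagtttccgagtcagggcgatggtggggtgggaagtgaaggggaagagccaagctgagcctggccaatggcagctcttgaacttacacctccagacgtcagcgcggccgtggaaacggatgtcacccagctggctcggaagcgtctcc

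Neighbouring members moved alike in 1 pair and in opposite directions in another. Fbxo6 and Fbxo44, next to each other, both rose with cisplatin, whereas Fbxo21 and Fbxw8, 54763 bases apart on chromosome 5 and on opposite strands, fell and rose. Exons of other called members overlap a gene on the other strand: Fbxl15 shares 345 bases with Cuedc2 (log2 -0.26 and not called in Cisplatin against Normal, 0.47 and called in RP against Cisplatin), Fbxw4 676 bases with Gm17018 and Fbxw8 1845 bases with Gm9754. Fbxo3 shares 190 bases with 4931422A03Rik and Fbxo34 12 bases with Gm35166 in the same way. Fbxl20 shares 674 bases with Gm11632 on its own strand, where a strand setting would not separate them. Of these partners only Cuedc2 was among the counted symbols, and reads of opposite-strand pairs cannot be told apart without a strand setting.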

How the data were processed

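RNA from 9 gastrocnemius samples was extracted with Trizol and made into Lexogen QuantSeq 3′ libraries, per the labels' protocols. For each sample the authors deposited raw counts by gene symbol, on 23282 rows. Bowtie2, edgeR and mm10 are named in the submitters' processing notes; their versions, how reads were counted and on which strand, and the gene models used are not stated there. Groups follow the labels. Rows sharing a symbol were summed (79 rows, 35 symbols, no F-box member).

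Tests used edgeR 4.0.16 in R 4.3.3: filterByExpr by group, TMM scaling, glmQLFit on all 9 libraries and glmQLFTest per comparison, with Benjamini-Hochberg adjustment over 12859 genes and a threshold of 0.05. An SE is the size of the log2 fold change over the root of the F statistic. Library totals of 8196030 to 10678342 leave genes of a few CPM with wide counting error; floors (3 counts) hold for counting error alone, as the reads carry no molecular identifiers. Within groups no library pair was as alike as copies (chi-square per degree of freedom 11.3 to 28.9). The steps were also run on simulated counts in which a small part of the genes differed in the Cisplatin group. A far larger share of genes was called in the real data. That run therefore does not show how scaling and error rates hold here.

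Members, gene lists, motifs and alternatives were chosen with earlier results of these data known. Full values were given for up to 6 called members per direction and comparison by adjusted p, up to 12 called in opposite directions in the comparisons with Cisplatin, and the 3 of highest mean CPM per subfamily; other members were named since each is accounted for, except 1 tested FBXL gene that is not reported here. Lists name up to 4 called genes by adjusted p; Skp1a, Lrrc29 and the remaining called genes of short lists were named after their values were seen. Symbols listed but not among the counted ones were Fbh1 (counted as Fbxo18), Skp1, Ube2d2, Cops9 and Ly6g. Alternatives were RLE scaling, library size only, no filter, 5 CPM in 3 libraries, DESeq2 1.42.0, limma-voom (limma 3.58.1), a block on replicate number, fits of the compared groups alone, Rn45s left out, and each library left out. Positions are GENCODE M21 (GRCm38), upstream sequence RefSeq (GRCm38.p6). Figures used matplotlib 3.10.9.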

Additional observations from a re-analysis of the deposited data

How the results depend on the processing

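No called F-box gene changed sign in any of 18 alternatives. In Cisplatin against Normal, 7 of 23 called members were called in every alternative they were tested in (Fbxo31, Fbxo6, Fbxo25, Fbxo9, Fbxl17, Fbxw4 and Fbxw7), and in RP against Cisplatin 10 of 17; the others lost the call in at least 1. Against Normal, 5 members in place of 9 were risen in Cisplatin with library size as the only scaling, and 5 with the filter of 5 CPM in 3 libraries, which tests fewer genes. Leaving out 1 library gave 4 to 9 risen and 7 to 14 fallen there, and 6 to 11 risen in RP against Cisplatin. The FBXW median log2 fold change, -0.02 in Cisplatin against Normal and 0.15 in RP against Cisplatin, was 0.142 and -0.063 with the filter of 5 CPM, and -0.142 to 0.181 in Cisplatin against Normal with 1 library left out. The cause was not tested. No member was called in RP against Normal under any alternative, whereas over all genes 293 were called with no filter and 224 by DESeq2, in place of 65. Library size as the only scaling moved the median of all genes to -0.15 in Cisplatin against Normal, to 0.06 in RP against Normal and to 0.21 in RP against Cisplatin. There it gave 3678 genes risen and 2435 fallen, where TMM gave 3167 and 3110.

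Samples share replicate numbers in the labels. Same-numbered samples deviated together with correlations of -0.150 to 0.180, and differently numbered ones with -0.209 to 0.130. For RP with Cisplatin the same-numbered values were 0.023, 0.180 and 0.167, and the others ran from -0.209 to 0.081. The numbers are thus not shown to pair the samples, nor shown not to. With the number as a block, 7 members were risen and 14 fallen in Cisplatin against Normal, 10 risen and 6 fallen in RP against Cisplatin, and 0 called in RP against Normal; Fbxo4, Fbxw8 and Fbxo34 lost a call. Depth limits the 28 members not tested and those of a few CPM, such as Fbxl7, Fbxl16 and Fbxo10.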

Other observations

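The messenger RNAs of proteins that F-box receptors remove also differed in level between groups. Of 21 tested genes of known SCF substrates, 9 rose and 8 fell with cisplatin (adjusted p under 0.05, edgeR's quasi-likelihood test), and 7 rose and 8 fell in RP against Cisplatin, a comparison that shares the Cisplatin libraries; of all genes tested, 54.5% and 48.8% were called. The list's median log2 fold change was -0.21 in Cisplatin against Normal and 0.10 in RP against Cisplatin. Cdkn1a, the cell cycle inhibitor p21, averaged 174 CPM in RP, 1384 CPM in Cisplatin and 34.5 CPM in Normal. Its log2 fold change was 5.32 in Cisplatin against Normal (SE 0.25, adjusted p = 1.74e-08, edgeR), -2.99 in RP against Cisplatin (SE 0.22, adjusted p = 3.8e-07) and 2.33 in RP against Normal (SE 0.22, adjusted p = 0.000385). Mdm2, the ligase of p53 and a substrate of FBXO31 in human cells, averaged 75.7 CPM in RP, 120.3 CPM in Cisplatin and 56.4 CPM in Normal (log2 1.09 in Cisplatin against Normal, SE 0.13, adjusted p = 1.22e-05). Per1, a clock repressor, averaged 53.0 CPM in RP, 69.7 CPM in Cisplatin and 27.3 CPM in Normal, and was risen in RP against Normal as well (log2 0.96, SE 0.16, adjusted p = 0.0153). Without 1 of Normal-1, Normal-3, RP-1 or RP-3 only 1 of these 21 genes, in place of 2, was called risen in RP against Normal. Protein was not measured, so these values say nothing of how much substrate was degraded.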
